A study of Mus musculus with 27 samples.

Results

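The p53 pathway was followed through differentiation of mouse embryonic stem cells by the levels of 32 named genes among the 25209 genes listed in each table. The genes were taken by name, from a list drawn up with earlier results of these data known. They were divided by role into core and feedback genes (7), arrest genes (6), apoptosis genes (12) and genes of repair and stress (7). All 32 passed a minimum base mean of 10, averaged over the 8 tables, as did 14937 genes in all. Fas and Dram1 passed only through the differentiated cultures, with base means below 10 in naive and primed cells.

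RNA of V6.5 cells, a mouse embryonic stem cell line, was sequenced in 27 libraries. Wild-type (WT) cells and the Zfp512b knockout clones KO4 and KO8 were each sampled in the naive state (day 0, 3 libraries per group) and as primed cells (day 2), as cultures directed to cardiomyocytes (CM, day 7.5) and as cultures directed to neural progenitors (NPC, day 10), with 2 libraries per group at each of these later stages. Naive cells grew in medium with LIF, a MEK inhibitor and a GSK3 inhibitor, primed cells received serum medium with LIF, and both differentiated cultures passed through embryoid bodies, with vitamin C for CM and retinoic acid for NPC. Each clone carries a transcriptional terminator and a selection marker after exon 3 of Zfp512b, whereas the WT cells did not pass through editing and selection. Each knockout group is 1 clone. The labels do not say whether libraries of a group came from separate cultures.

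The value used here is the base mean of each of the 8 deposited tables, which is the authors' mean of normalised read counts over the WT libraries and the libraries of 1 clone at 1 stage. These are called the WT + KO4 mean and the WT + KO8 mean below. Such a mean holds WT and knockout cells together, so it gives the level of a gene at a stage and, where the means of the clones are set side by side, a difference between the clones, but no difference between knockout and WT. It has no replicates, and no spread between libraries could be set beside any value. Comparisons were therefore made by a fixed size of difference, with no test. The summed base means were between 16.8 and 36.1 megareads (M) per table, the highest in naive cells. To compare stages, each base mean was expressed in reads per 1 M of the sum of its table (RPM). The targeted gene, Zfp512b, stood at 19.3 and 18.8 RPM in naive cells, 33.5 and 32.5 in primed cells, 78.7 and 78.0 in NPC and 35.8 and 34.6 in CM (WT + KO4 and WT + KO8 means). These pooled means do not check the knockout labels.

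p53 is a transcription factor that is stabilised when DNA is damaged or cells are stressed. It then raises genes that stop the cell cycle, start apoptosis, repair DNA or limit p53 itself, the last above all through Mdm2, the ligase that marks p53 for degradation. Embryonic stem cells are known for abundant p53 and for a weak G1 arrest.

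p53 binds a pair of 10-base sequences, here called decamers, each made of purines, a core of C and G around A or T bases, and pyrimidines. RefSeq promoter windows (GRCm38.p6, from 250 bases before to 50 bases after a transcription start) matched 24 of the 32 genes. The genes Zmat3, Trp53inp1, Pmaip1, Perp, Tnfrsf10b, Rrm2b, Ddb2 and Xpc had no entry. At least 1 decamer that fits the p53 consensus at every base was found in 10 of the 24 genes (41.7%), against 8.60% of 18639 genes of the tables with a window. The pattern is its own reverse complement, so 1 scan covered both strands. The 24 genes had 1.54 windows per gene and all genes 1.20. A pair of decamers at most 13 bases apart was found for Cdkn1a among the 24, and for 8 of all genes (0.0429%). The genes were listed as p53 pathway members, several because p53 is known to bind near them, so the share is a description of the list. The following windows are shown because they hold the decamer (in capitals) in front of a core gene, feedback genes, an arrest gene, an apoptosis gene and a stress gene whose levels are described below, on the strand of the gene, 5′ to 3′, with GRCm38.p6 positions.
Trp53 (chr11:69580274-69580303, plus strand): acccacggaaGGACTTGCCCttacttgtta
Mdm2 (chr10:117710925-117710954, minus strand): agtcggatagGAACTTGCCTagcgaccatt
Ccng1 (chr11:40755452-40755481, minus strand): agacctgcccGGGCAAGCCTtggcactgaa
Cdkn1a (chr17:29090918-29090947, plus strand): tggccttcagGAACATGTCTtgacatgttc
Bax (chr7:45467080-45467109, minus strand): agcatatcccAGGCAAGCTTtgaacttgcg
Sesn1 (chr10:41887256-41887285, plus strand): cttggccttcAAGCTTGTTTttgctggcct

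Per kilobase of exon sequence (mm9 annotation), Bax and Trp53 had the highest levels of the 32 genes in naive cells. Bax, which permeabilises the outer mitochondrial membrane, stood at 129 RPM per kb (mean of both tables), above 97.1% of kept genes with a known length. Trp53, on chromosome 11 from 69393861 to 69405375 of mm9, stood at 106 (96.0%). Ei24 followed at 83.0, and Mdm4, a partner of Mdm2 that inhibits p53, at 74.6. The lowest were Fas, the death receptor, at 0.029, Dram1, a gene of autophagy, at 0.061 and Cd82, a tetraspanin, at 0.193. In CM cultures the highest level per kb was that of Ccng1, the gene of cyclin G1, at 125 RPM per kb, followed by Bax at 73.1.

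**Figure D1:**
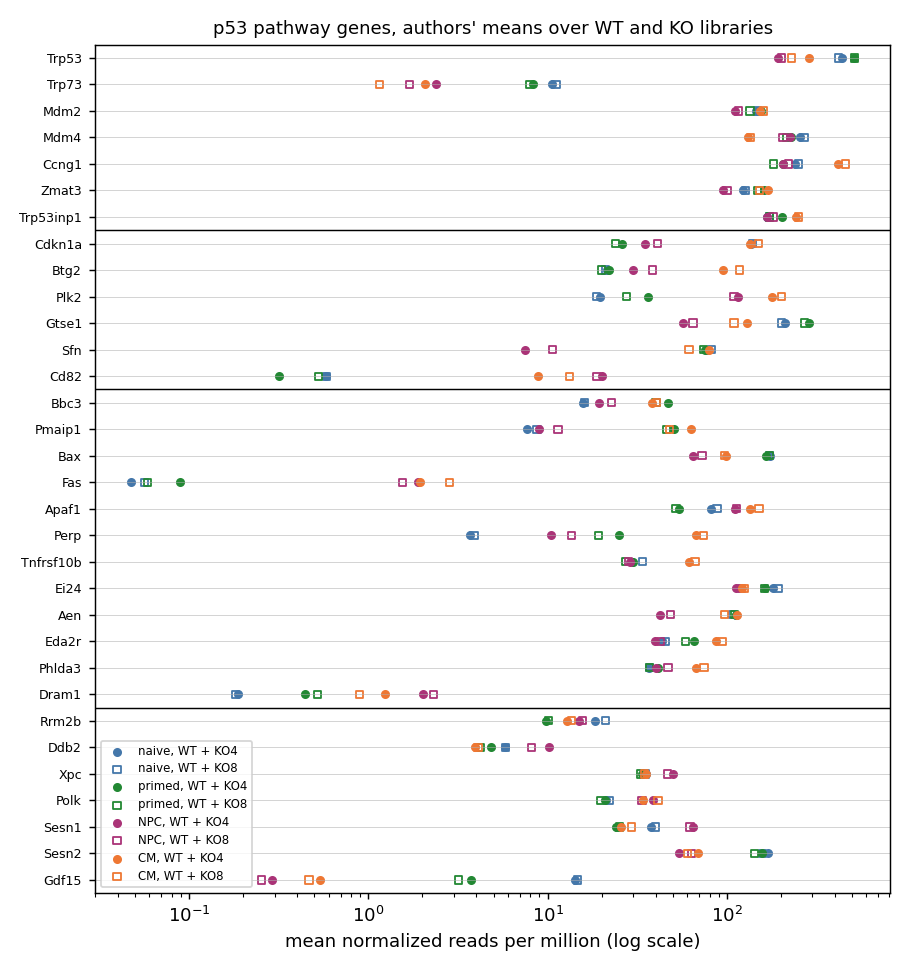
Level of each of the 32 genes (rows, grouped by role from core and feedback at the top through arrest and apoptosis to repair and stress), in normalised RPM on a log axis. Each point is 1 of the 8 pooled means (filled circles WT + KO4, open squares WT + KO8, colours for stages). Trp53 and Ccng1 reach the highest levels (514 and 459 RPM), and Fas lies farthest to the left, at 0.088 RPM or less in naive and primed cells.

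The stage at which a gene was highest was the same in the tables of both clones for 25 of the 32 genes. CM was highest for 12 genes (Ccng1, Zmat3, Trp53inp1, Btg2, Plk2, Pmaip1, Fas, Apaf1, Perp, Tnfrsf10b, Eda2r and Phlda3), where 15.7% of all kept genes were highest in CM. NPC was highest for 5 (Cd82, Dram1, Ddb2, Xpc and Sesn1), against 35.2% of all genes. Fas and Dram1 passed the filter only through these later stages, so they could hardly be highest elsewhere. The naive state was highest for 6 (Trp73, Mdm4, Ei24, Rrm2b, Sesn2 and Gdf15), against 19.5%, and the primed state for Trp53 and Gtse1, against 17.5%. For the other 7 genes the tables of the clones named different stages, as they did for 12.2% of all genes. With stages scaled by the median ratio of genes instead of by their sums, 5 genes were highest in primed cells, against 21.0% of all genes. Stages were normalised separately by the authors and rescaled here, and in such bulk samples fewer cells of a type and less RNA per cell cannot be told apart.

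The stage labels were checked against marker genes. The summed level of 6 naive markers was between 3648 and 3705 RPM in naive cells, 1538 and 1617 in primed cells, 172 and 193 in NPC, and 127 and 162 in CM. The 6 primed markers stood at 1289 to 1374 in primed cells, 191 to 193 in naive cells, 90.2 to 109 in NPC and 424 to 656 in CM. Of these, Dnmt3b made up most of the sum in primed cells, and T, a mesoderm gene, was at 0.216 and 0.336 there. Only Dnmt3b and Pou3f1 were highest in primed cells. Fgf5, Otx2, Lef1 and T were higher in CM than in primed cells in the tables of both clones. The 6 markers of cardiomyocytes summed to 670 in the WT + KO4 mean and 1016 in the WT + KO8 mean of CM, and to at most 11.6 at the other stages. In NPC, all 6 neural markers were above 1 RPM, and they summed to 382 and 431. The neural sum was higher, at 537, in the WT + KO4 mean of CM, and stood at 204 in the WT + KO8 mean of CM, 181 and 182 in naive cells and 93.9 and 94.6 in primed cells, so the list does not single out NPC. Neurog2, which specifies neurons, was highest in NPC (6.82 and 6.24), whereas Pax6 was at 17.5 and 17.2 there and at 79.3 in the WT + KO4 mean of CM. Markers of endoderm, endothelium, blood and stroma (8 genes) summed to between 382 and 388 in NPC and to 1741 and 3164 in CM. The sums were 147 and 153 in naive cells, where Pecam1 alone stood at 145 and 150, and 63.3 and 67.3 in primed cells. Acta2 made up 904 and 1142 of the CM sums. All 8 genes were above 1 RPM in both differentiated cultures, against 2 in naive and 3 in primed cells. Both cultures thus hold RNA of genes that mark other cell types. The part of such cells in the values of the p53 pathway genes was not tested.

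Between the naive and the primed state most of the 32 genes differed by less than 2-fold. A gene was counted as higher or lower between stages when the ratio of its levels (RPM with 0.5 added) was at least 2-fold in the same direction in the tables of both clones, which share WT libraries at each stage and are not replicates. In primed cells 3 of the 32 genes were higher, against 8.03% of all kept genes, and 2 were lower, against 7.68%. The median log2 ratio of the 32 genes was -0.06 and that of all genes -0.01. Both counts lay near the shares of all genes. The 3 higher genes belong to apoptosis, and the 2 lower genes are an arrest gene and a stress gene, but this does not describe their groups. Median log2 ratios were 0.07 for apoptosis, -0.05 for arrest, -0.02 for core and feedback and -0.34 for repair and stress.

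Cdkn1a encodes p21, the inhibitor of cyclin-dependent kinases through which p53 halts the cycle. It stood at 136 and 139 RPM in naive cells and at 25.8 and 23.9 in primed cells. Its log2 ratios were -2.37 and -2.52, with a counting error of 0.035. Gdf15, a secreted stress factor on chromosome 8 of mm9 (73153292 to 73156355), went from 14.2 and 14.7 to 3.75 and 3.18, with log2 ratios of -1.79 and -2.05. Counting errors cover the reads alone and not the spread between libraries.

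Pmaip1, Bbc3 and Perp moved the other way. Pmaip1 encodes NOXA, a BH3-only protein that antagonises MCL1, and stood at 7.72 and 8.71 RPM in naive cells against 50.8 and 46.1 in primed cells, 6.24 and 5.06 times as high with 0.5 added. Bbc3, which encodes the BH3-only protein PUMA, went from 15.7 and 16.1 to 47.1 and 40.2. Perp, which encodes a membrane protein of desmosomes and apoptosis, went from 3.68 and 3.88 to 24.9 and 19.2. These 3 genes were counted because both of their ratios passed 2-fold, so it follows from the rule that their naive and primed means lay apart. Trp53 itself differed little, at 438 and 420 in naive and 511 and 514 in primed cells (log2 ratios of 0.22 and 0.29). Mdm2 had log2 ratios of opposite sign in the tables of the clones (0.09 and -0.13).

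In NPC cultures the list was divided. Compared with primed cells 6 of the 32 genes were higher, against 33.0% of all genes, and 9 were lower, against 13.7%. The median log2 ratio of the list was -0.07, below that of all genes (0.39). The sum of RPM weighs a few abundant genes heavily, and scaling by the median ratio of genes lowered the median NPC against primed log2 ratio of all genes from 0.39 to 0.25, which left the counts within 1.5 times of these.

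Among the core genes, Trp53 was lower than the primed levels above, at 192 and 202 RPM in NPC, with log2 ratios of -1.41 and -1.34. Its relative Trp73, which encodes p73, was at 8.31 and 7.88 in primed cells and at 2.38 and 1.69 in NPC. Mdm2 stood at 111 and 116 in NPC and Mdm4 at 225 and 206, neither past 2-fold. Ccng1 and Trp53inp1, both feedback genes, had log2 ratios between -0.28 and 0.28. The transcript of p53 was thus lower while those of its main inhibitors stayed within 2-fold.

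Of the arrest genes, Sfn differed most on the lower side. Sfn, which encodes 14-3-3 sigma of epithelial cells, stood at 75.4 and 74.1 RPM in primed cells and at 7.49 and 10.6 in NPC. Gtse1, a microtubule-binding protein of G2 and M phase that restrains p53, went from 289 and 270 to 57.2 and 64.7. Plk2, a kinase of the polo family, was higher in NPC, at 116 and 109 against 36.1 and 27.6. Cd82 was at 20.2 and 18.8 in NPC against 0.319 and 0.528, but the primed values rest on about 22 and 36 reads over the 4 libraries of a table. Cdkn1a stood at 35.0 and 40.9 in NPC, under 2-fold above the primed cells.

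Of the apoptosis genes, Pmaip1 (8.95 and 11.4 RPM in NPC), Bax (65.0 and 72.5) and Aen (42.1 and 48.4) were lower than in primed cells. Aen encodes a nuclease of apoptotic cells, and its primed levels were 112 and 110. Apaf1, the scaffold of the apoptosome, was higher, at 112 and 113 against 54.1 and 52.0. Fas and Dram1 were also counted as higher, but from a primed base mean of at most 8.75, which for Fas is about 6 reads over the libraries of the WT + KO4 table. In the group of repair and stress, Sesn1 and Sesn2, which encode sestrins that restrain mTORC1, moved apart. Sesn1 went from 24.0 and 25.2 in primed cells to 64.6 and 62.3 in NPC, and Sesn2 from 157 and 143 to 54.0 and 63.4. Gdf15 was at 0.290 and 0.253 in NPC.

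**Figure D2:**
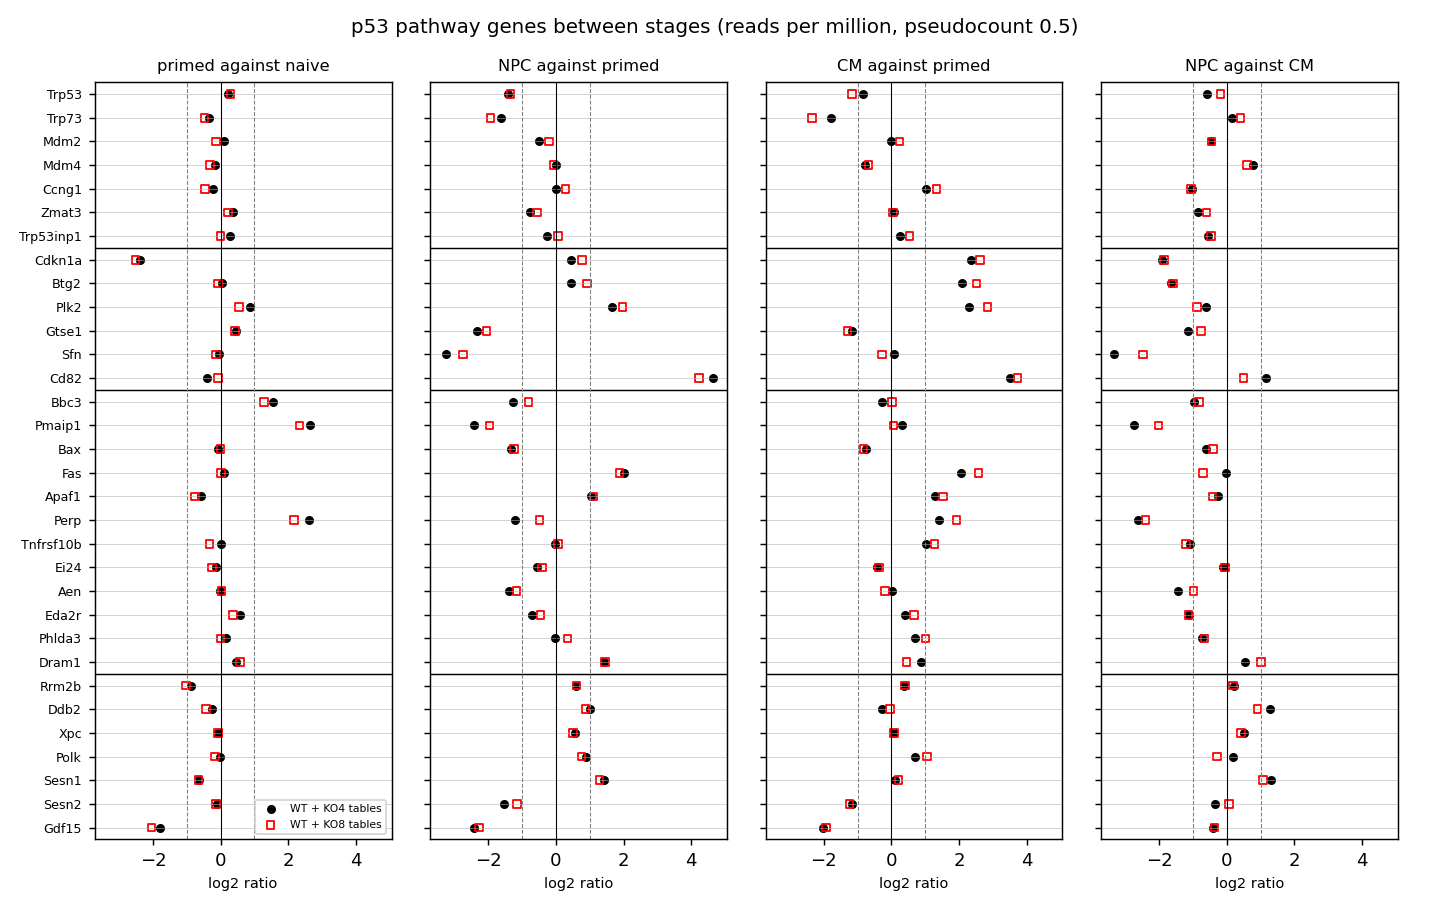
Log2 ratio of RPM (0.5 added) for each of the 32 genes between stages, 1 panel per comparison, with the genes in the order of the plot of levels. Black circles are the WT + KO4 means, red squares the WT + KO8 means and dashed lines mark 2-fold; Cdkn1a lies at -2.37 and -2.52 in primed against naive cells and at 2.36 and 2.63 in CM against primed cells.

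In CM cultures most genes placed in the arrest group were on the higher side. Compared with primed cells, 9 of the 32 genes were higher, against 25.6% of all genes, and 4 were lower, against 10.3%. Of the 6 genes placed in the arrest group 4 were higher (Cdkn1a, Btg2, Plk2 and Cd82, the last from few primed reads). The median log2 ratio of the group was 2.40, beside 0.17 for the whole list and 0.24 for all genes. For the 12 apoptosis genes the median was 0.60, with 4 higher and 0 lower.

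Cdkn1a was at 134 and 150 RPM in CM, close to its naive levels of 136 and 139, with primed cells and NPC below. Btg2, an antiproliferative gene that acts with the CCR4-NOT deadenylase, was at 94.7 and 117 in CM against 22.0 and 20.0 in primed cells. Plk2 reached 178 and 201, between 4.86 and 7.17 times its primed level with 0.5 added. Cd82, the tetraspanin, was at 8.79 and 13.2, but its primed base means were only 5.51 and 8.89. Gtse1 was the 1 arrest gene on the lower side, at 129 and 110, and Sfn (79.7 and 61.4) stayed near its primed levels.

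Of the apoptosis genes, Perp (67.4 and 74.2 RPM), Tnfrsf10b (61.8 and 66.3), Apaf1 (134 and 151) and Fas (1.94 and 2.83) were higher in CM than in primed cells. Fas passed the filter only through CM and NPC. Tnfrsf10b encodes the death receptor for TRAIL and held between 27.0 and 34.0 at the other 3 stages. Pmaip1 (63.2 and 48.0) and Bbc3 (38.4 and 40.6) stayed at their primed levels, so the naive cells and NPC were the stages low in both. Of the feedback genes Ccng1 was higher, at 418 and 459 against 206 and 182. Trp53 was at 287 and 229, with log2 ratios of -0.83 and -1.16, so 2-fold was passed in the WT + KO8 means alone. Trp73, Gtse1, Sesn2 and Gdf15 were lower in CM and in NPC than in primed cells.

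Set directly against CM, NPC had 8 of the 32 genes lower, against 6.71% of all genes, and 1 higher, against 8.59%. The median log2 ratio was -0.48 for the list and 0.11 for all genes. The 8 lower genes were Ccng1, Cdkn1a, Btg2, Sfn, Pmaip1, Perp, Tnfrsf10b and Eda2r, which come from the core, arrest and apoptosis groups. Sfn had the lowest ratios (-3.33 and -2.48), followed by Perp (-2.64 and -2.41) and Pmaip1 (-2.75 and -2.02) on the log2 scale. Eda2r, the receptor of ectodysplasin A2, was at 39.7 and 42.5 in NPC and at 86.4 and 93.9 in CM. The gene on the higher side was Sesn1, at 64.6 and 62.3 against 25.7 and 29.3, and it was below 2-fold in 1 or both clones' tables when stages were scaled by the median ratio of genes. The genes of nucleotide excision repair, Xpc and Ddb2, were highest in NPC. Xpc stood at 50.1 and 46.6 in NPC and between 32.8 and 35.6 elsewhere, and Ddb2 at 10.2 and 8.12 in NPC and between 3.91 and 5.82 elsewhere. Exons of Ddb2 share 652 bases (23.8% of their length) with exons of Acp2 on the opposite strand, whose base mean over the tables was 717 against 129 for Ddb2, so part of the reads may belong to either gene. Polk, a translesion polymerase, and Rrm2b, the p53-induced subunit of ribonucleotide reductase, differed by under 2-fold between NPC and CM.

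A wider list of 38 genes of the pathway, among them kinases that act on p53, cofactors, caspases and cyclins, was measured in the same way. In primed against naive cells 4 were higher, against 8.03% of all genes, and 4 lower, against 7.68%, and Gadd45a and Gadd45g, genes of growth arrest and DNA damage, had the highest mean log2 ratios (3.63 and 3.45). In NPC against primed cells 5 were higher, against 33.0% of all genes, and 9 lower, against 13.7%, with Bcl2, the inhibitor of apoptosis, highest (4.39) and Ccne1, the gene of cyclin E1, lowest (-2.87). In CM against primed cells 6 were higher, against 25.6%, and 9 lower, against 10.3%, with Thbs1, the gene of thrombospondin 1, highest (7.24) and Ccne1 again lowest (-2.52). In NPC against CM 0 were higher, against 8.59%, and 5 lower, against 6.71%, with Thbs1 lowest (-4.20). Thbs1 is also a gene of stromal and vascular cells, whose markers were higher in CM than in NPC. The part of such cells in the Thbs1 ratios was not tested.

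The clones were compared through their pooled means. Because the WT + KO4 and WT + KO8 means of a stage hold the same WT groups in equal number, their ratio moves with the difference between KO8 and KO4 and understates it. It does not say which clone departs from WT. The ratio was centred on the median of all kept genes, and a gene was counted as different when it lay past 0.2 on the log2 scale.

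In naive cells the clones' means lay close together. Past 0.2, 1 of the 32 genes was higher in the WT + KO8 mean, against 10.4% of all genes, and 0 were lower, against 5.77%. The 1 gene was Fas, whose means of 1.71 and 2.02 rest on about 10 and 12 reads. The 30 genes with base means of at least 10 lay between -0.10 (Sesn2) and 0.19 (Tnfrsf10b). Cdkn1a was at 0.02, Mdm2 at 0.01 and Trp53 at -0.07.

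In primed cells the p53 pathway genes lay lower in the WT + KO8 mean. Of the 32 genes 7 were lower, against 7.89% of all genes, and 2 were higher, against 8.91%. Both of the latter, Cd82 and Dram1, had base means under 10, as had Fas among the lower ones. Of 29 genes with base means of at least 10, 25 were on the lower side of the median gene, 6 of them past 0.2. The deposited mean of Plk2 was 624 normalised reads in the WT + KO4 table and 465 in the WT + KO8 table (log2 ratio -0.39, counting error 0.044). Perp had 430 and 322 (-0.38), Bbc3 813 and 677 (-0.23), Trp53inp1 3489 and 2905 (-0.23) and Mdm2 2689 and 2265 (-0.21). Gdf15 was the sixth, with 64.7 and 53.5 (-0.24, counting error 0.133). Trp53 was at 0.00. The median size of the log2 ratio was 0.14 for the 32 genes and 0.06 for all genes. Stage markers moved in the same means. All 6 naive markers were lower in the WT + KO8 mean (-0.15 to -0.03) and all 6 primed markers higher (0.08 to 0.64). The ratios of Tbx3, Nanog and Tfcp2l1 were smaller than the median size over all genes. The 0.64 is that of T, at 0.216 and 0.336 RPM, and the next highest primed marker was Lef1 (0.19). Sums were 1617 and 1538 RPM for the naive and 1289 and 1374 for the primed markers. Their part in the differences of the p53 pathway genes was not tested.

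In NPC the arrest and apoptosis genes lay mostly on the higher side. Of the 32 genes 8 were higher in the WT + KO8 mean, against 13.9% of all genes, and 5 were lower, against 7.30%. Those on the higher side were 3 arrest genes, 4 apoptosis genes and Sesn2. Sfn had 126 and 184 normalised reads in the WT + KO4 and WT + KO8 means (log2 ratio 0.48, counting error 0.083), Perp 175 and 235 (0.37), Btg2 505 and 668 (0.34) and Pmaip1 151 and 198 (0.34). Bbc3 (0.22), Sesn2 (0.22), Cdkn1a (0.21) and Phlda3 (0.20) were nearer the limit. Perp and Bbc3 therefore lay on opposite sides in primed cells and in NPC. On the lower side were Trp73 with 40.0 and 29.4 reads (-0.50), Ddb2 with 171 and 141 (-0.34), Fas (-0.29), Polk (-0.22) and Gdf15 (-0.21), the last with a base mean under 10. The counting error was 0.189 for Fas and 0.474 for Gdf15, and 2 such errors exceed either ratio in size. The median size of the ratio was 0.15 for the 32 genes and 0.08 for all genes. Of the naive markers 5 of 6 were also higher in the WT + KO8 mean of NPC, among them Zfp42 (0.62), Esrrb (0.58) and Nanog (0.57), and the list summed to 172 and 193 RPM. Of the neural markers 4 of 6 were higher, Tubb3 (0.58) and Sox1 (0.53) most, with sums of 382 and 431. The primed list had 5 of 6 genes higher but a lower sum (109 and 90.2). Among those 5, Otx2 (0.12 and 0.18 RPM) and T (0.23 and 0.28 RPM) were at very low levels. Of the cardiomyocyte markers 3 of 6 were higher, Tnnt2 most (1.79, from 0.544 to 1.90 RPM), with sums of 9.66 and 11.1, and of the other cell types 5 of 8, Hbb-bh1 most (1.19, from 3.02 to 6.95 RPM), with sums of 388 and 382. Their part in the differences of the p53 pathway genes was not tested.

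In CM the clones' means lay farther apart than at the other stages, over all genes and over the p53 pathway genes. Of the 32 genes 5 were higher in the WT + KO8 mean, against 25.7% of all genes, and 7 were lower, against 24.5%. The median size of the log2 ratio was 0.18 for the 32 genes and 0.20 for all genes. Trp53 had 5156 and 4274 normalised reads (-0.31), Trp73 37.3 and 21.5 (-0.84), Pmaip1 1135 and 894 (-0.38), Sfn 1432 and 1143 (-0.37), Aen 2056 and 1798 (-0.23) and Gtse1 2311 and 2042 (-0.22). Btg2 had 1703 and 2185 (0.32), Polk 611 and 767 (0.29), Cd82 158 and 246 (0.60) and Fas 34.8 and 52.7 (0.56). Dram1, at 22.2 and 16.6 (-0.46, counting error 0.234), and Sesn1, at 462 and 546 (0.20), complete the 12 genes. Cdkn1a, at 2416 and 2802, was at 0.17, and Mdm2 at 0.06. The summed markers of cardiomyocytes and of other cell types given above were higher in the WT + KO8 mean of CM. Among the neural markers 5 of 6 were lower there, with Pax6 (79.3 and 4.20 RPM) and Sox1 (97.7 and 4.55) lowest. Neurog2 was higher (0.97, from 0.027 to 0.053 RPM). Naive markers were lower in 4 of 6 genes, Zfp42 most (-1.90), with sums of 162 and 127. Primed markers were lower in 5 of 6, Pou3f1 most (-1.89), with sums of 656 and 424. Their part in the differences of the p53 pathway genes was not tested.

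Of the 38 wider genes of the pathway, 3 were higher and 3 lower in the WT + KO8 mean of naive cells, 1 higher and 2 lower in primed cells, 7 higher and 1 lower in NPC, and 3 higher and 12 lower in CM. The shares of all genes are those given above for each stage, among them 13.9% higher in NPC and 24.5% lower in CM. In CM, Ccnd1, the gene of cyclin D1, was lowest (-0.73) and Gadd45g highest (0.47).

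**Figure D3:**
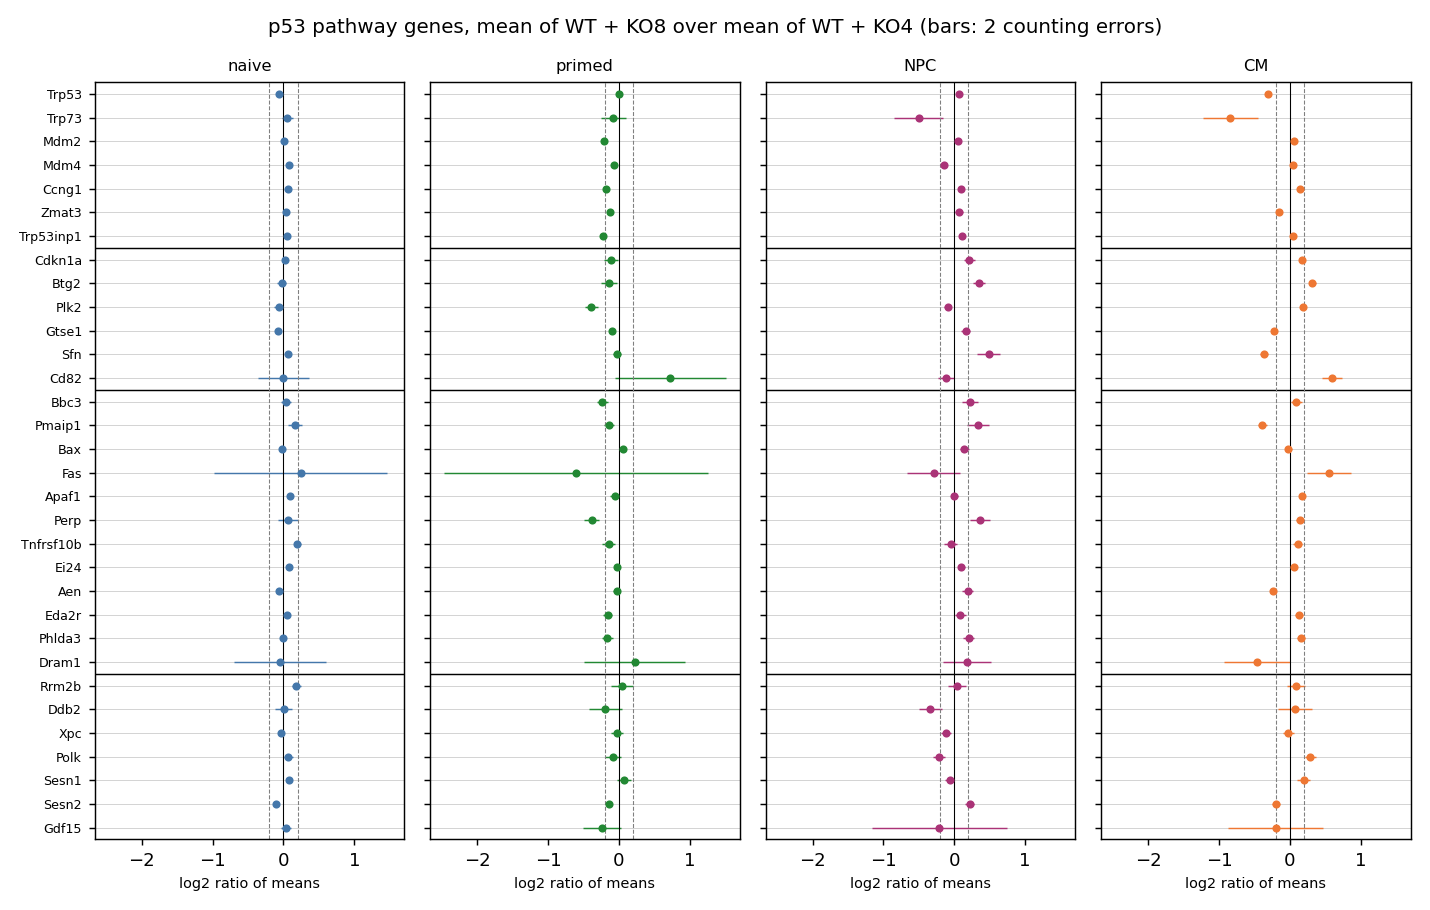
Log2 ratio of the WT + KO8 mean to the WT + KO4 mean for each of the 32 genes, centred on the median of all kept genes, 1 panel per stage. Bars are 2 counting errors to each side, which treat the shared WT reads as separate and do not cover the spread between libraries, and dashed lines mark 0.2; naive cells lie closest to 0, and primed cells lie mostly to the left.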

How the data were processed

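According to the labels and the submitters' processing notes, reads were trimmed with Trim Galore 0.6.7, aligned to mm9 with HISAT2 2.2, counted with featureCounts and normalised with DESeq2 1.46.0. How featureCounts treated strand and multiply mapped reads is not given in the sources used here. Each of the 8 deposited tables sets 1 clone against WT at 1 stage. The base mean, a signal that the authors computed as the mean normalised count over the libraries compared, was used. The fold change, standard error, Wald statistic, p-value and adjusted p of each table are the authors' own comparisons of knockout with WT and were not used, so no knockout effect is given. No value per library was used, and neither the spread between libraries nor duplicated libraries could be examined.

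Base means were scaled to reads per 1 M of their table's sum (RPM). Stages were compared as log2 ratios with a pseudocount of 0.5 RPM, counted from 2-fold in both clones' tables. The tables of the clones were compared as log2 ratios less the median of all kept genes, counted past 0.2. Genes were kept (14937) where the base mean, averaged over the tables, reached 10. Approximate reads are the base mean times the number of libraries, and the counting error is the Poisson error of their log2 ratio. Exon lengths and positions came from GENCODE vM1 (mm9), where 13062 of the kept genes had a length. The calculations were checked on simulated tables holding known large changes in abundant genes, with counting noise alone. That check does not cover differences near the limit of 0.2, genes with low base means or the spread between libraries. Python 3.11.15, numpy 2.4.6, pandas 2.3.3 and matplotlib 3.10.9 were used.

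All 32 members are named. Of the wider list the rule takes the 3 genes farthest in each direction, of which the text gives some, and a gene that it takes is not reported here. The members, lists, limits and alternatives were chosen with earlier results of these data known.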

Additional observations from a re-analysis of the deposited data

How the results depend on the processing

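The pseudocount (0.1 or 1 RPM) and the absence of the filter kept all counts of genes within 1.5 times, and none of the ratios counted as different changed sign under the alternatives run. Of 1008 values of single genes under other scalings, pseudocounts and filters, 918 moved by less than their counting interval and 90 by more. A filter does not enter the stage ratio of a gene that it keeps, so many of the 918 could not move. Without the filter the counts between stages could not change either, since all listed genes pass it. With stages scaled by the median ratio of genes, most listed genes moved by more than their interval in primed against naive cells. The same held for NPC against primed cells and for NPC against CM, but not for CM against primed cells. Scaling by the median ratio of genes left 0 genes higher in NPC against CM (7.39% of all genes) and put 5 genes highest in primed cells (21.0%), an alternative added for the latter after the data had been seen. The size of difference required moved many counts, given here with the share of all genes at the same limit. At 1.5-fold, 5 genes were lower in primed than in naive cells (15.6% of all genes), 7 lower in CM than in primed cells (18.8%), and 3 higher (18.1%) and 14 lower (11.4%) in NPC than in CM. At 3-fold, 3 were higher (22.0%) and 5 lower (7.10%) in NPC than in primed cells, 5 higher (16.3%) and 2 lower (5.12%) in CM than in primed cells, and 0 higher (3.98%) and 5 lower (3.38%) in NPC than in CM. Between the clones, a limit of 0.1 gave 4 higher (20.2%) and 1 lower (13.2%) in naive cells, 17 lower in primed cells (15.1%), 13 higher (22.6%) and 8 lower (18.0%) in NPC and 13 higher in CM (36.2%). A limit of 0.3 gave 0 higher in naive cells (6.14%), 1 higher (5.68%) and 3 lower (4.81%) in primed cells, 4 higher (9.76%) and 2 lower (3.5%) in NPC and 3 higher in CM (18.9%). A filter at a base mean of 50 left 0 higher in naive (7.40%) and 1 higher in primed cells (5.34%). Between stages, this filter drops Fas and Dram1. It left 4 genes higher in NPC than in primed cells (31.6%) and 8 higher in CM than in primed cells (25.0%). No paired analysis was possible because the values are means over libraries, and for the same reason no library could be left out. Depth limits Fas, Cd82, Dram1 and Gdf15, whose base means were under 10 at some stages.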
